A study of Mus musculus with 48 samples.

Results

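The contractile genes of smooth muscle were followed through the first weeks of life in 2 regions of the mouse small intestine. The set was fixed by name as 10 genes: Myh11, Acta2, Actg2, Cnn1, Des, Tagln, Mylk, Kcnmb1, Smtn and Lmod1. Each symbol matched 1 row of the authors' count table, which holds 54532 genes, and all 10 passed the filter on low counts that left 21986 genes for testing. The tissue was duodenum or ileum of C57Bl/6J mice, ground in 2 cm pieces. The labels call it whole-thickness, a term that takes in the muscle coat as well as the mucosa. Duodenum was cut just past the pylorus and ileum just ahead of the ileocecal junction, and mice were taken on day 0, 2, 4, 6 or 8 of life or in week 2, 3 or 4. All groups shared strain and housing, which the labels call standard germ-free, carried no engineered allele and received no agent. Weaning to chow came at day 21, so the week 4 mice differed from the day 0 to week 2 mice in diet as well as age. Both sexes were used and the labels do not give the sex of a sample.

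Smooth muscle shortens when myosin II heads pull on actin filaments. Calcium entering the cell binds calmodulin, calmodulin activates myosin light chain kinase, and phosphorylation of the regulatory light chain switches the motor on. The proteins of this apparatus are made together in mature smooth muscle under serum response factor and its partner myocardin, which act through a short DNA element called the CArG box. In the gut they fill the circular and longitudinal coats and the muscularis mucosae, and the same genes also mark the walls of blood vessels.

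The motor and its track are encoded by Myh11, the smooth muscle myosin heavy chain (ENSMUSG00000018830, chr16:14194535-14291372), Acta2, the alpha actin of vascular and other smooth muscle (ENSMUSG00000035783, chr19:34241090-34255590), and Actg2, the gamma actin typical of visceral muscle (ENSMUSG00000059430, chr6:83512905-83536265). Cnn1 encodes calponin 1 (ENSMUSG00000001349, chr9:22099216-22109630) and Tagln encodes transgelin or SM22 (ENSMUSG00000032085, chr9:45929619-45936058), a pair of actin binding proteins of the thin filament. Smtn encodes smoothelin, another actin binding protein (ENSMUSG00000020439, chr11:3517523-3540612), and Lmod1 encodes leiomodin 1, which nucleates actin filaments (ENSMUSG00000048096, chr1:135324807-135368065). Des encodes desmin, the intermediate filament of muscle (ENSMUSG00000026208, chr1:75360329-75368579). Mylk encodes myosin light chain kinase (ENSMUSG00000022836, chr16:34745210-35002420), and the gene is known to give a long form in epithelium and endothelium besides the form of smooth muscle. Kcnmb1 encodes the beta 1 subunit of the calcium-activated potassium channel that relaxes the muscle cell (ENSMUSG00000020155, chr11:33963013-33973641). Positions are whole protein-coding genes of GENCODE release M21 on GRCm38, the assembly also called mm10 in the submitters' processing notes.

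Because serum response factor and myocardin act through the CArG box, the promoter windows at hand were searched for it. RefSeq windows of GRCm38.p6, from 250 bases before to 50 after a gene's start, existed for 7 of the 10 genes (Acta2, Cnn1, Des, Mylk, Kcnmb1, Smtn and Lmod1). The form searched was CC, 6 bases of A or T, then GG, which reads the same way on both strands. None of the 7 windows held it, against 1.629% of all 32851 windows. With 1 C or G allowed among the 6 bases, 1 of the 7 windows matched, that of Acta2, against 9.984% of all windows. The Acta2 window held a pair of such boxes on the minus strand, which GENCODE places inside the first exon of its longer transcript. They are shown 5′ to 3′ in 30 bases each, with the box in capitals and 10 bases on either side.
Acta2, 84 bases before the RefSeq start, chr19:34255438-34255467: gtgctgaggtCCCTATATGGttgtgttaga
Acta2, 34 bases before the RefSeq start, chr19:34255388-34255417: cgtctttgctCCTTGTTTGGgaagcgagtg
A match is a string of letters in a short window and no measure of factor binding, and elements farther away were not searched.

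The labels give 3 samples for each region and age, 48 in all, and 46 were used. Levels are given in CPM, a gene's counts for every 1000000 counts of its library. Totals ran from 16824021 to 65042327 estimated counts per sample, and those of the ileum (at most 42029626) were on the whole smaller. The samples numbered 3 at day 6 went against their labels. In the one labelled duodenum, Pdx1, which marks the proximal intestine, was at 0.130 CPM on the library total, while duodenum samples 1 and 2 of day 6 had 11.8 and 11.4. In the one labelled ileum it was at 14.1, while ileum samples 1 and 2 had 0.105 and 0.480. Over all ages, the 23 duodenum samples kept ran from 1.40 to 21.1 and the 23 ileum samples from 0.0815 to 6.63. The regions thus overlap in Pdx1, though 0.130 lies below the duodenum range and 14.1 above the ileum range. The day 6 samples numbered 3 were left out, which leaves 2 samples per region at day 6. Results with them under their labels are given where they differ. The labels do not say whether samples came from separate litters or whether a duodenum and an ileum came from 1 mouse, so p-values measure the spread between these samples.

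Other levels are CPM after TMM scaling. Set against the label of whole-thickness tissue, all 10 genes had counts in both regions, but 9 of them were low beside epithelial genes. Without Mylk, the 9 genes together made 13.7 to 62.4 CPM in the 23 duodenum samples (median 23.7) and 18.3 to 217 CPM in the 23 ileum samples (median 59.1). A list of 10 epithelial genes, Epcam and Vil1 among them, summed to 5205 to 23469 CPM over the same 46 samples. The 9-gene sum was therefore 0.130% to 0.570% of the epithelial sum in duodenum and 0.214% to 3.47% in ileum. A list of 12 skeletal and cardiac muscle genes summed to 2.26 to 27.0 CPM. Pancreatic acinar genes reached 469 CPM in duodenum day 2 sample 1 (median 38.6 over days 0 to 8 in duodenum). Stomach epithelium genes reached 112 CPM in duodenum day 6 sample 2 (median 11.8). Mitochondrial genes held 13.1% to 35.2% of the counts of a sample. The bearing of these on the contractile genes was not tested. In bulk tissue, fewer muscle cells and less RNA per muscle cell cannot be told apart.

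Per kilobase of the longest coding transcript, Mylk was the highest of the 10 genes in both regions, at 30.2 CPM per kilobase in duodenum and 34.1 in ileum. Its mean of 236 CPM in duodenum lay above 97.3% of tested genes. The means of the other 9 lay above 7.05% (Kcnmb1) to 59.0% (Smtn) of tested genes in duodenum and above 13.8% (Kcnmb1) to 69.6% (Myh11) in ileum. The next highest per kilobase in duodenum was Smtn at 3.12, followed by Acta2 at 2.03, Tagln at 1.70 and Actg2 at 1.22. In ileum the next highest was Actg2 at 7.04, followed by Acta2 at 6.22, Tagln at 5.25 and Myh11 at 3.09. The order of Smtn thus moved from the second place to the sixth, where it stood at 2.53 CPM per kilobase, close to Des at 2.48. Lmod1 and Kcnmb1 were lowest in both, and Kcnmb1 had 0 to 13 counts in a duodenum sample, with none in 4 of 23, and 1 to 22 in an ileum sample. Its values carry the counting error of such numbers.

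**Figure D1:**
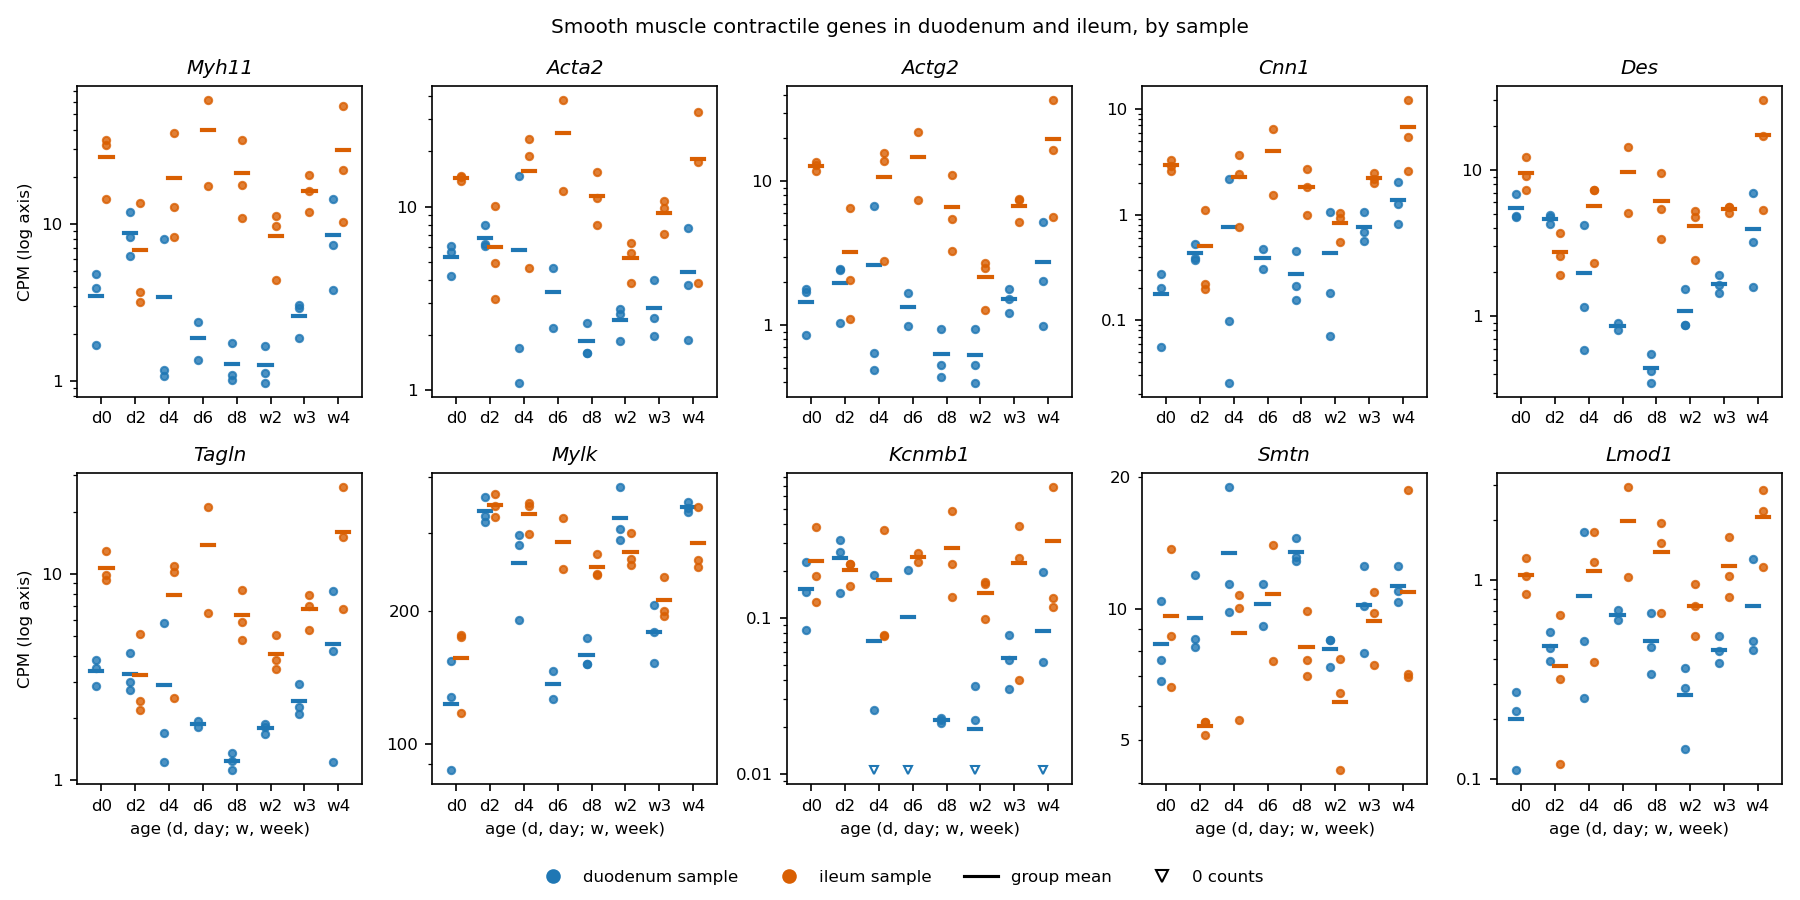
Level of each contractile gene in every sample used, in CPM on a log axis that differs between panels, by age (d, day and w, week), with duodenum in blue and ileum in orange; bars are group means of 2 or 3 samples and open triangles mark 0 counts. The orange mean lies above the blue mean at 7 or 8 of the 8 ages in the panels other than Mylk (6) and Smtn (2), and at day 2 the regions overlap for most genes.

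The first comparison asked how the regions differ. Averaged over the 8 ages, 9 of the 10 genes were higher in ileum and Smtn was lower, by edgeR's quasi-likelihood test at an adjusted p below 0.05. In the same comparison 62.1% of all tested genes were called, 31.9% as higher in ileum, so a call by itself is common here. A difference of at least 2-fold is less so: 8 of the 10 genes were called and at least 2-fold higher in ileum, against 10.4% of all tested genes. The median log2 difference was 1.64 for the 10 genes and 0.08 for all tested genes.

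Myh11 and Actg2 differed most, and Acta2 less. Myh11 ran from 0.979 to 14.4 CPM in the duodenum samples (median 2.39) and from 3.21 to 61.6 in the ileum samples (median 14.5). Its log2 difference was 2.59 ± 0.28 (SE, adjusted p = 1.65e-09, 23 samples against 23). Actg2 ran from 0.399 to 6.75 CPM (median 1.03) in duodenum and from 1.11 to 36.7 (median 7.41) in ileum, a log2 difference of 2.44 ± 0.29 (adjusted p = 1.34e-08). Acta2 ran from 1.10 to 14.6 CPM (median 2.76) in duodenum and from 3.13 to 38.1 (median 10.8) in ileum, with a smaller log2 difference of 1.64 ± 0.25 (adjusted p = 1.43e-06). For each of these 3 genes the ranges over all ages overlapped between the regions.

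Among the thin filament proteins, Cnn1 was higher in ileum by 2.08 ± 0.32 on the log2 scale, Tagln by 1.60 ± 0.20 and Lmod1 by 1.23 ± 0.21 (adjusted p = 7.97e-07, 1.18e-08 and 4.35e-06). Cnn1 was scarce, with 1 to 73 counts in a duodenum sample and 5 to 392 in an ileum sample. Des, from 0.352 to 6.95 CPM in duodenum and 1.90 to 29.97 in ileum, was higher by 1.83 ± 0.21 (adjusted p = 2.25e-09). Kcnmb1 was higher by 1.64 ± 0.35 (adjusted p = 0.000118).

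Smtn and Mylk stood apart from these. Smtn ran from 6.82 to 18.9 CPM in duodenum and from 4.28 to 18.6 in ileum, so the regions overlapped over nearly the whole range, and its log2 difference was -0.30 ± 0.11 (adjusted p = 0.0191). That call was lost with total counts as the only scaling (adjusted p = 0.399) and without ileum day 6 sample 2 (0.0541). Mylk was higher in ileum by 0.27 ± 0.07 (adjusted p = 0.000412), with samples from 87.4 to 380 CPM in duodenum and 118 to 367 in ileum. With the day 6 samples numbered 3 included under their labels, Mylk fell below the threshold (0.16, adjusted p = 0.141), Myh11 differed by 2.11 and 9 genes were called.

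With the ages split, Myh11 and Actg2 had the largest differences in both parts, and Mylk was called in the early part and not in the late one, a contrast that was not itself tested. Over days 0 to 8, 9 genes were called higher in ileum and 1 lower, against 25.5% and 27.7% of all tested genes. The lower one was Smtn (-0.37 ± 0.14, adjusted p = 0.0288), a call lost in 9 alternatives, among them total counts (0.339), the samples of the normalized tables (0.0770) and 7 that left out a single sample (0.0540 to 0.107). Over weeks 2 to 4, 8 were called higher, against 25.1%, and Mylk (-0.10 ± 0.10, adjusted p = 0.453) and Smtn (-0.19 ± 0.18, adjusted p = 0.400) were not called. The early difference of Mylk was 0.50 ± 0.08 (adjusted p = 4.83e-06).

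**Figure D2:**
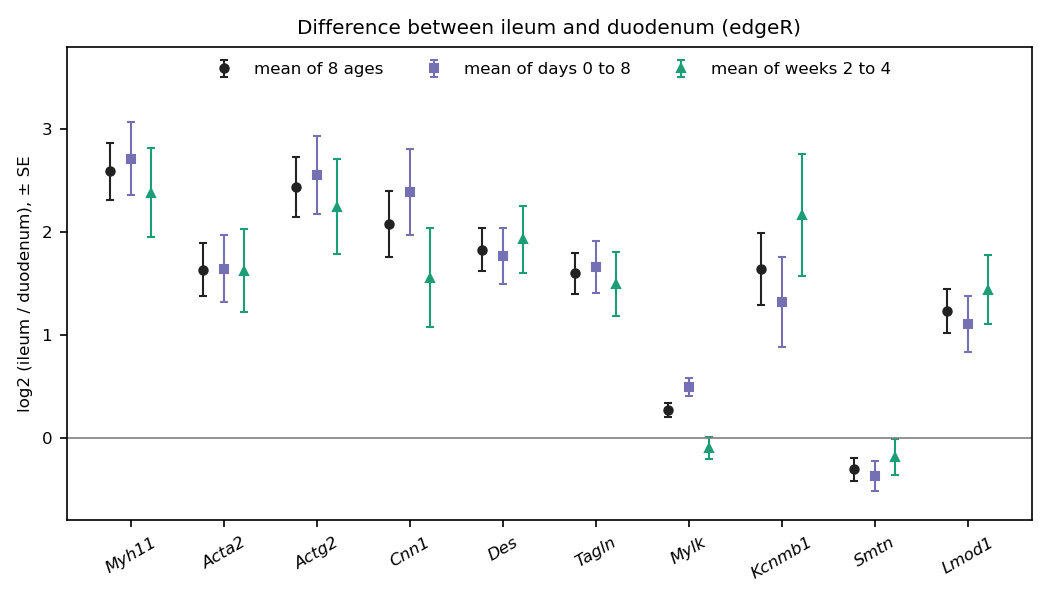
Log2 difference between ileum and duodenum for each contractile gene by edgeR, averaged over all 8 ages (circles), days 0 to 8 (squares) and weeks 2 to 4 (triangles), with bars for ± 1 SE. Myh11 and Actg2 stand highest at 2.59 and 2.44 over all ages, while Mylk and Smtn lie near 0.

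Age by age, the regional difference was not even. At day 0 every ileum sample lay above every duodenum sample for 7 of the 10 genes, against 13.2% of all tested genes. At day 2 this held for none of the 10 (19.5% of all), and for Des and Smtn every ileum sample lay below every duodenum sample, an order seen in 21.4% of all tested genes. At day 4 it held for 2 genes (11.6% of all), at day 6, with 2 samples a region, for 9 (36.8%), at day 8 for 8 (26.1%), at week 2 for 7 (24.7%), at week 3 for 7 (16.3%) and at week 4 for 2 (18.5%).

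Myh11 shows the course. At day 0 the duodenum samples had 3.94, 4.83 and 1.69 CPM and the ileum samples 14.5, 31.8 and 34.4. At day 2 duodenum had 6.23, 8.26 and 11.9 and ileum 3.71, 13.7 and 3.21, so that 2 of the 3 ileum samples lay below all duodenum samples. By day 8 duodenum had 1.01, 1.10 and 1.76 and ileum 17.7, 10.99 and 34.5, a 16.4-fold ratio of means with no overlap. At week 4 duodenum had 3.81, 14.4 and 7.36 and ileum 10.3, 56.3 and 22.2, and the regions overlapped again.

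Des followed a like course with a deeper duodenal trough. Its duodenum samples had 4.77, 4.83 and 6.83 CPM at day 0 and 0.352, 0.422 and 0.548 at day 8. In ileum they had 7.32, 9.02 and 12.3 at day 0, 2.57, 3.73 and 1.90 at day 2, and 5.44, 3.36 and 9.59 at day 8. The ratio of means, ileum over duodenum, was 1.74 at day 0, 0.589 at day 2 and 13.9 at day 8.

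**Figure D3:**
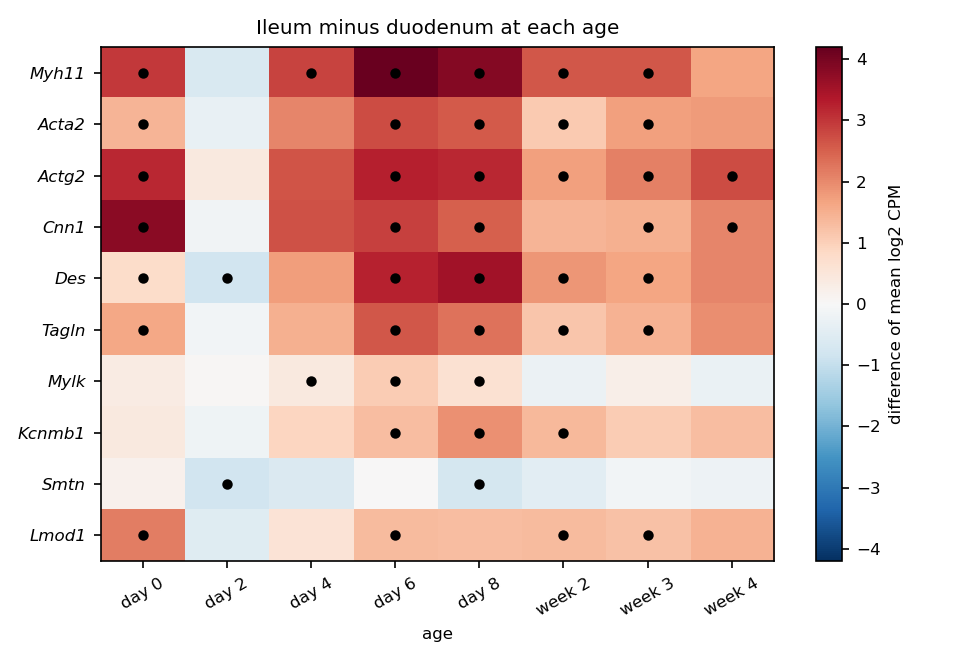
Difference of mean log2 CPM (prior count 2), ileum minus duodenum, for each contractile gene (rows) at each age (columns), red where ileum was higher and blue where it was lower; a dot marks cells in which the samples of the regions do not overlap. The day 2 column is pale or blue for every gene, and the strongest red is Myh11 at day 6, with a difference of 4.15.

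A test of the interaction of region and age asked whether age acted differently in the regions. It called 3 of the 10 genes, against 22.4% of all tested genes: Myh11 (adjusted p = 0.0362), Des (0.00270) and Mylk (0.00393). The adjusted p of the other 7 ran from 0.141 to 0.365. None was called when the day 6 samples numbered 3 were kept under their labels. Without duodenum day 4 sample 3, 5 were called, with Cnn1 (0.0133) and Acta2 (0.0252) besides these 3.

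Within the duodenum, age was called for 5 of the 10 genes, against 67.4% of all tested genes. Mylk (adjusted p = 3.96e-10), Des (1.33e-05) and Myh11 (0.00383) were clear of the threshold, while Kcnmb1 (0.0472) and Lmod1 (0.0498) lay at it. Leaving out duodenum day 4 sample 3 raised the count to 8, with Cnn1 (0.00156), Tagln (0.0149), Acta2 (0.0169) and Actg2 (0.0449) called and Lmod1 not (0.0601), and leaving out single samples of day 0, day 2, day 8, week 2 or week 3 lowered it to 3, through loss of Kcnmb1 and Lmod1. Duodenal Myh11 was highest in the day 2 mean, at 8.78 CPM, and lowest in the week 2 mean, at 1.27. Des was highest at day 0 (5.48) and lowest at day 8 (0.440).

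Between day 0 and day 8, 2 of the contractile genes were called lower in the duodenum. That share is close to the 19.2% of all tested genes called lower, so the count does not set the contractile genes apart. Des fell by 3.63 on the log2 scale (SE 0.63, adjusted p = 1.37e-05). Tagln fell by 1.45 (SE 0.55, adjusted p = 0.0333), from 2.86, 3.83 and 3.48 CPM to 1.12, 1.24 and 1.35, a call that was lost in 7 alternatives, with an adjusted p of at most 0.104. The other 8 were not called, among them Myh11 (-1.41 ± 0.78, adjusted p = 0.151), Acta2 (-1.53 ± 0.71, 0.0850) and Kcnmb1 (-2.56 ± 1.08, 0.0546). By week 4, 3 genes were above day 0, against 20.4% of all tested genes called higher. Cnn1 rose by 2.99 ± 0.96 (adjusted p = 0.0124), from 0.0554, 0.273 and 0.200 CPM (2, 6 and 11 counts) to 0.808, 2.03 and 1.27. Lmod1 rose by 1.90 ± 0.63 (adjusted p = 0.0144), from 4, 6 and 12 counts to 17, 46 and 14. Without duodenum day 0 sample 1 neither passed (adjusted p = 0.0635 and 0.0747), and Lmod1 also failed without duodenum week 4 sample 2 (0.136).

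Within the ileum, age was called for 7 of the 10 genes, against 58.7% of all tested genes. They were Mylk (adjusted p = 2.92e-05), Des (0.00194), Tagln (0.00343), Cnn1 (0.00745), Actg2 (0.00981), Lmod1 (0.0159) and Smtn (0.0475). The call of Smtn was lost in 19 alternatives, 12 of which left out a single sample of any age but week 4, with adjusted p-values up to 0.135 (total counts as the only scaling). That of Lmod1 was lost in 3, all 48 samples (0.0679) and those without ileum day 2 sample 1 (0.0556) or 3 (0.0663). Myh11 (0.0525), Acta2 (0.0799) and Kcnmb1 (0.929) were not called. With the day 6 samples numbered 3 kept under their labels the count was 2. Actg2 had its lowest mean at week 2, with samples at 2.72, 2.48 and 1.28 CPM, and its highest at week 4, with 5.65, 36.7 and 16.6, a set whose lowest and highest samples differed more than most ages did. The means of Cnn1, Des, Tagln, Smtn and Lmod1 were all lowest in ileum at day 2 and highest at week 4.

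From day 0 to week 4 in the ileum, 1 of the 10 genes was called, Mylk, against 41.9% of all tested genes. All 10 fitted differences were above 0, with a median of 0.61 and 0.08 for all tested genes. From week 3 to week 4, Des rose by 1.70 ± 0.55 (adjusted p = 0.0285), from 5.56, 5.60 and 5.06 CPM to 5.36, 29.97 and 17.0, against 8.26% of all tested genes called higher. The lowest week 4 sample lay within the week 3 range, and without ileum week 4 sample 2 the log2 change was 1.04 (adjusted p = 0.247), and the call was lost in 9 of 15 alternatives. The 12 skeletal and cardiac muscle genes, of which 10 had counts in ileum over weeks 2 to 4 and Myh4 and Pvalb had none, summed to 3.20, 27.0 and 10.8 CPM in the same week 4 samples and to 3.09 to 4.80 at week 3. Their part in the rise of Des, a gene of all muscle, was not tested. From day 8 to week 2 and from week 2 to week 3 edgeR called none of the 10 in the ileum, against 6.64% and 26.8% of all tested genes. At an unadjusted p below 0.05 the counts were 1 (Actg2) and 2 (Actg2 and Mylk), and DESeq2 also called 0 in each.

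Mylk, the light chain kinase, had a course of its own. In duodenum it stood at 154, 128 and 87.4 CPM at day 0, at 328, 362 and 317 at day 2, and at 152, 152 and 174 at day 8. It then stood at 380, 289 and 306 at week 2, at 152, 179 and 206 at week 3, and at 335, 352 and 342 at week 4. The samples of week 2 and week 3 did not overlap, and neither did those of week 3 and week 4. Mylk rose by 1.03 ± 0.18 from day 8 to week 2 (adjusted p = 0.000328), fell by 0.86 (SE 0.18) from week 2 to week 3 (0.000420) and rose by 0.94 ± 0.18 from week 3 to week 4 (0.000297). It was the only one of the 10 genes called in each of these duodenal steps, against 15.7%, 18.3% and 12.7% of all tested genes. Over day 0 to week 4 it rose by 1.48 ± 0.18 in duodenum (adjusted p = 1.72e-08, against 40.5% of all tested genes called) and by 0.87 ± 0.18 in ileum (0.000146).

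In ileum Mylk stood at 175, 176 and 118 CPM at day 0 and 344, 367 and 326 at day 2. It stayed at 298 to 351 at day 4 and at 249 and 323 at day 6, where the duodenum had 126 and 147. From day 0 to day 8 it rose by 0.68 ± 0.18 (adjusted p = 0.00533, against 8.56% of all tested genes called higher), a call lost without ileum day 0 sample 3 (0.0678). The later steps of Mylk in ileum were not called.

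The other 9 genes moved together from sample to sample within a group. In 5 of the 14 groups of 3, the same sample was highest for all 9, and in 10 of the 14 one sample was highest for 7 or more. Duodenum day 8 is among the 5, but Kcnmb1 had 1 count in each of its samples. Its order there follows the scaling of the libraries alone. The share of all tested genes that peak in the same sample was not counted. Duodenum day 4 had the widest spread of the duodenum groups. Its 9-gene sums were 15.6, 17.3 and 62.4 CPM, with Myh11 at 1.08, 1.18 and 8.09, Acta2 at 1.10, 1.70 and 14.6 and Cnn1 at 0.0256, 0.0985 and 2.18. Sample 3 held the highest value of all 9. The highest sum was 3.99 times the lowest there, against 1.21 (day 0) to 2.77 times (week 4) in the other duodenum groups. Sample 3 also had the lowest mean Spearman correlation with its own group of the 46 samples (0.952). Ileum week 4 spread from 42.8 to 217 CPM with sample 2 highest for all 9, and ileum day 6 had 181 and 59.2. The 2 samples left out had 148 CPM where labelled duodenum and 20.4 where labelled ileum.

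**Figure D4:**
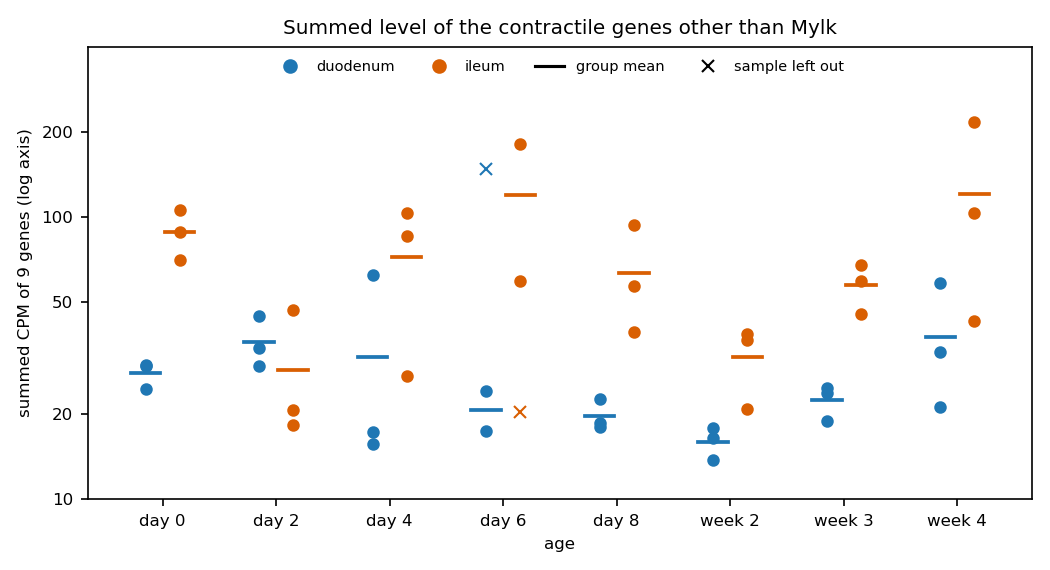
Summed level of the contractile genes other than Mylk in every sample, in CPM on a log axis, by age, with duodenum in blue and ileum in orange; bars are group means and crosses are the samples left out at day 6. Duodenum day 4 has one sample at 62.4 above the other two near 16, and ileum week 4 spreads from 42.8 to 217.

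As a description over the 46 samples, deviations of log2 CPM from the group mean were correlated between genes. Among Myh11, Acta2, Actg2, Cnn1, Des, Tagln and Lmod1 the 21 pairs had Pearson's r from 0.704 to 0.917, with a median of 0.831. Smtn had a median r of 0.69 with these 7 genes and Kcnmb1, at few counts, 0.57. Mylk had a median of 0.05. These points share their library and its scaling, and no test is attached to them.

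The mean of the 10 standardised profiles was then compared with 12349 other genes over the 46 samples. The 8 most like it were Tpm2, beta tropomyosin (r = 0.97), Myl9, the regulatory light chain of smooth muscle myosin (0.94), Ckap4 (0.84), Psd (0.84), Abi3bp (0.83), Myom1 (0.83), Timp2, an inhibitor of matrix metalloproteases (0.82), and Hoxb4, a homeobox gene (0.82). Within the duodenum alone Tpm2 had r = 0.93 and within the ileum 0.98. The others ran from 0.53 (Timp2) to 0.85 (Myl9) within the duodenum and from 0.73 (Ckap4) to 0.93 (Myl9) within the ileum. Over all 46 samples r also takes in the difference between the regions. Of the members themselves, Actg2 (0.96) and Myh11 (0.95) were most like the mean. Each member is part of that mean, which raises its r, so these values do not compare with those of the outside genes. Smtn had 0.24 over all samples, but 0.90 within the ileum and 0.35 within the duodenum. Mylk had 0.26 over all and -0.20 within the ileum.

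The choice between the smooth muscle actins was read as the share of Actg2 in the counts of Acta2 and Actg2 together. That share compares counts of transcripts of different length, so it tracks change and is no molar ratio. No 50-base word of Actg2 occurred in another gene, and 0.352% of those of Acta2 did. In duodenum the share was 27.4% ± 7.47 (SD, n = 23) and in ileum 39.6% ± 9.19 (SD, n = 23). At day 0 it was 13.1% to 28.6% in duodenum and 45.9% to 48.2% in ileum, with no overlap. In ileum it was lowest at week 2, at 28.6% ± 3.86 (SD, n = 3), then 42.3% ± 1.33 at week 3 and 53.6% ± 5.54 at week 4, and these 3 sets of samples did not overlap. In duodenum it was 20.01% ± 4.72 at week 2, 35.8% ± 4.02 at week 3 and 36.7% ± 3.31 at week 4, the last 2 overlapping.

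**Figure D5:**
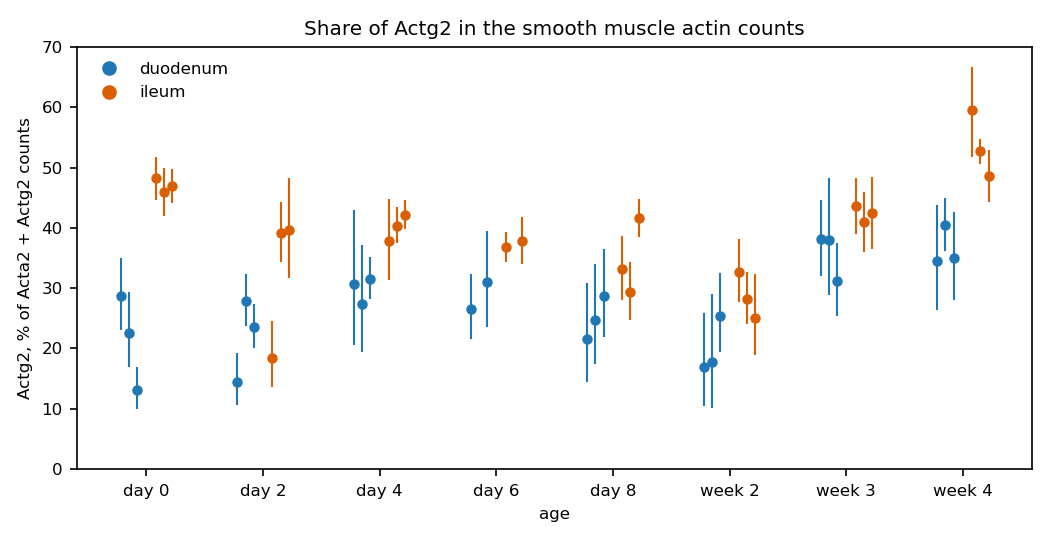
Actg2 as a percentage of Acta2 plus Actg2 counts in every sample used, by age, with duodenum in blue and ileum in orange; bars are 95% Wilson intervals, which cover counting error only. Ileum samples lie at or below 32.7% at week 2 and between 48.5% and 59.5% at week 4.

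The partners of these genes were read from lists chosen for smooth muscle biology. Of 22 genes of the contractile apparatus and muscle cytoskeleton outside the 10, 14 were higher in ileum and 3 lower over the 8 ages. For this and the lists that follow, 31.9% of all tested genes were called higher in the same comparison and 30.2% lower, and the median log2 difference of 0.68 for these 22 genes stands beside 0.08 for all tested genes. The largest differences were in Tpm2 (1.94 ± 0.22 on the log2 scale), Pdlim3, a Z-line adaptor (1.67 ± 0.26), Pgm5, an adherens junction protein of muscle (1.59 ± 0.20), and Synm, the intermediate filament synemin (1.53 ± 0.18). Of 13 genes of contraction and relaxation signalling, 8 were higher and 1 lower (median 0.43), led by Pln, phospholamban (1.94 ± 0.45), Ppp1r14a, the inhibitor of myosin phosphatase (1.71 ± 0.22), and the subunits of soluble guanylate cyclase, Gucy1b1 (1.498 ± 0.19) and Gucy1a1 (1.41 ± 0.18). Of 14 tested channels and receptors, 9 were higher and 0 lower (edgeR, median 1.13), led by the calcium channel subunits Cacnb2 (2.46 ± 0.20) and Cacna1c (1.61 ± 0.21), the cation channel Trpc6 (1.52 ± 0.24) and Cacna1h (1.23 ± 0.12).

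Of 12 tested transcription regulators, 7 were higher in ileum and 3 lower (median 0.42). Foxf2 (1.90 ± 0.19) and Foxf1 (1.73 ± 0.16), forkhead factors of gut mesenchyme, led, followed by Myocd, which encodes myocardin (0.98 ± 0.29), and Nkx2-3, a homeobox gene of gut mesenchyme (0.92 ± 0.20). Srf differed by -0.01 ± 0.06 (adjusted p = 0.915).

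From day 0 to week 4 the same lists split. In duodenum 5 of the 22 contractile apparatus genes rose and 6 fell, against 20.4% of all tested genes called higher and 20.1% called lower, shares near those of the list. The largest changes were falls of Itga8, an integrin subunit (-2.997 ± 0.81), Synpo2 (-2.43 ± 0.52) and Cald1, caldesmon (-1.20 ± 0.44). In ileum 5 rose and 0 fell (edgeR), against 21.5% called higher and 20.4% called lower, led by Synm (2.17 ± 0.47) and Filip1l (1.95 ± 0.24). Among the regulators Foxf2 fell in both regions (-4.21 ± 0.57 in duodenum, -2.56 ± 0.51 in ileum), as did Foxf1 (-3.03 ± 0.45 and -2.16 ± 0.43) and Nkx2-3 (-2.70 ± 0.58 and -2.11 ± 0.57), while Klf4, a factor also made in epithelium, rose (1.79 ± 0.19 and 2.12 ± 0.19). Of the receptors, Chrm2, a muscarinic acetylcholine receptor, fell (-3.80 ± 0.70 and -2.70 ± 0.65) and Chrm3, another, rose (0.84 ± 0.22 and 0.94 ± 0.23). In signalling, Gucy1b1 fell in both (-3.47 ± 0.55 and -1.86 ± 0.51). These regulator, receptor and signalling genes were named for the largest called changes in their lists, and do not describe the lists as wholes. The 10 contractile genes had 3 rises and 0 falls in duodenum and 1 rise and 0 falls in ileum in this comparison.

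Markers of other non-epithelial cells also differed between the regions over the 8 ages, read against the same 31.9% of all tested genes called higher and 30.2% called lower. Of 8 fibroblast genes, 7 were higher in ileum and 1 lower, with a median log2 difference of 2.01, and their summed level over days 0 to 8 was 66.9 to 260 CPM in duodenum and 143 to 720 in ileum. Over weeks 2 to 4 it was 97.8 to 376 in duodenum and 116 to 300 in ileum. All 7 genes of interstitial cells of Cajal, the pacemakers of the gut, were higher, with a median of 0.51, as were all 6 of pericytes and vascular mural cells, with a median of 1.31. Endothelium had 6 of 8 higher, enteric neuron 6 of 9 and mesothelium 4 of 5, with 0, 0 and 1 lower. The summed level of the mesothelium list went the other way over days 0 to 8, with a median of 206 CPM in ileum and 403 in duodenum. Enteric glia had 3 of 6 higher and 1 lower. Epithelium had 1 of 10 higher and 3 lower, and proliferation 0 of 8 higher and 8 lower (edgeR). From day 0 to week 4, pericyte genes had 6 of 6 lower in duodenum and 4 of 6 in ileum, and endothelial genes 8 of 8 and 5 of 8. In that comparison 20.1% of all tested genes were called lower in duodenum and 20.4% in ileum. The part of these other cells in the differences of the contractile genes was not tested.

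Some of the 10 genes overlap others on the opposite strand, and the sources used here do not say whether counting used the strand. Tagln overlaps Pcsk7, whose count was a median 981% of that of Tagln, and Gm48529, at 98.6%. Smtn overlaps Gm11946 at 4.23%, Kcnmb1 overlaps Kcnip1 at 14.3%, and the antisense genes within Mylk each had under 1% of its count. Overlap here is between whole gene spans, introns included, and overlap of exons was not measured. Where exons overlap, reads of Tagln and its neighbours may not be fully told apart.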

How the data were processed

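Estimated counts per gene were deposited by the authors as a gene-level summary of transcript estimates, per the file headers and table name, and are whole numbers. The submitters' processing notes list STAR 2.6.1d, Salmon 0.14.2, DESeq2 1.30.1 and mm10 without roles. The deposited normalized signal, 20 columns per region, equals each count divided by 1 factor per column; it gave gene symbols and the limma alternative.

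Counts of 46 samples in 16 groups were fitted with edgeR 4.0.16 (R 4.3.3; filterByExpr, TMM, robust quasi-likelihood, one mean per group). The 16 comparisons were contrasts, with Benjamini-Hochberg adjustment over 21986 genes and a threshold of 0.05. Standard errors are the log2 fold change over the square root of F. The procedure was tested on simulated data. Alternatives comprised RLE or total-count scaling, other filters, DESeq2 1.42.0, other sample sets, a replicate block, each sample left out, and limma 3.58.1 on the log2 signal.

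The members and lists were chosen with earlier results of these data known. Named list genes were at most the 4 largest called changes per comparison; Srf was added after its value was seen. One list gene is not reported here. Of 54532 identifiers, 54409 matched GENCODE M21. Where the normalized tables are used, all day 4 samples and the day 6 samples numbered 3 are absent, so 7 ages are compared.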

Additional observations from a re-analysis of the deposited data

Results flagged for a closer look

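The edgeR test of the interaction of region and age called 3 of the 10 contractile genes, not far from the 22.4% of all tested genes called. Its adjusted p-values over all genes were 0.0362 for Myh11, 0.00270 for Des and 0.00393 for Mylk. For Myh11 the difference of mean log2 CPM, ileum minus duodenum, ran from -0.63 at day 2 to 4.15 at day 6. For Des it ran from -0.80 at day 2 to 3.52 at day 8, and for Mylk from -0.28 at week 4 to 1.06 at day 6. The call of Myh11 was lost in 12 of 54 alternatives, 10 of which left out a single sample of day 2, 6 or 8. Those of Des and Mylk were lost in 1, the fit with all 48 samples under their labels.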

How the results depend on the processing

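The 9 higher values and 1 lower value in ileum against duodenum kept their direction under all 54 alternatives, or 53 for Kcnmb1, which the mean count of at least 10 removes. Of 1856 repeats of called member values, 1744 passed again, 112 did not and 0 reversed; the cause of each loss was not tested. Members called moved as follows. Age in duodenum (5): 8 with the samples of the normalized tables, which hold 7 ages and no day 4, 10 and 9 with limma plus 1 and plus 0.1 on that same smaller set, and 3 to 8 with 1 sample left out. Age in ileum (7): 2 with all 48 samples. Week 4 against day 0 in duodenum (3): 1 to 3 with 1 sample left out. Day 8 against day 0 in duodenum (2): 1 without the filter or with all 48 samples, 4 with DESeq2, 5 with the normalized-table samples, 7 with only the compared groups, and 1 to 3 with 1 sample left out; in ileum (1): 0 with all 48 samples, and 0 to 1 with 1 sample left out.

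With only the compared groups, week 2 against day 8 gave 4 in duodenum (1) and 2 in ileum (0), week 3 against week 2 gave 3 (1) and 4 (0), and week 4 against week 3 gave 2 (1) and 0 (1). Week 3 against week 2 in ileum gave 1 with total counts and 1 with the normalized-table samples. Week 4 against week 3 in ileum (1) gave 0 without the filter, 2 with a mean count of at least 10, 0 with all 48 samples, 4 with the normalized-table samples, and 0 to 2 with 1 sample left out. The interaction (3) gave 0 with all 48 samples, 6 with the normalized-table samples, and 2 to 5 with 1 sample left out. The replicate block gave 0 for week 4 against week 3 in ileum and 6 for the interaction. Same-numbered samples of the regions deviated together weakly (mean r 0.08 over 23 pairs, 9 above 0.1), against -0.04 over 44 pairs with different numbers (6 above 0.1). Deviations cancel within a group, so the mean of the different-number pairs follows from the other and is no separate control. Numbers were not taken as pairs because the labels do not pair them, and these values cannot settle the question.

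Calls over all genes moved by over 1.5 times for week 2 against day 8 (3448 in duodenum, 825 to 6278; 1460 in ileum, 60 to 3472), week 4 against week 3 (2794, 1706 to 4568; 3534, 1527 to 5675), day 8 against day 0 in ileum (4234, down to 2639) and the interaction (4930, 947 to 9512). Total-count scaling moved the median gene of ileum against duodenum from 0.08 to 0.25, which is where Smtn lost its call. The counts of Kcnmb1, and those of Cnn1 and Lmod1 in duodenum, are too few to show small changes.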
